A study of Mus musculus with 6 samples.

Results

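The genes described here encode the nuclear subunits of the mitochondrial respiratory chain and of ATP synthase. They were chosen by name, as all genes with a single platform symbol that starts with Nduf, Uqcr, Atp5 or Cox4 to Cox8, together with Sdha, Sdhb, Sdhc, Sdhd and Cyc1. This gave 91 of the 18193 genes with a single symbol, measured by 180 of the 45037 probe sets tested. By complex they were 34 subunits and 8 assembly factors of complex I (prefix Ndufaf), 4 genes of complex II, 9 of complex III, 19 of complex IV and 17 of ATP synthase, or complex V. Ndufa4 and its paralog Ndufa4l2 were counted with complex IV, to which NDUFA4 protein is now assigned.

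The samples were 3 of tumor-associated lymphatic endothelial cells (LECs), from xenografts of the human line MDA-MB-435 excised 8 weeks after subcutaneous injection, and 3 of LECs from healthy mammary skin, all on balb-c/nude mice. MDA-MB-435 was long used as a breast cancer line and was later traced to a melanoma, and nude mice lack mature T cells. LECs, which line lymphatic vessels, were found on tissue sections by a short stain for the hyaluronan receptor LYVE-1 and cut out by laser, and their RNA was amplified once before hybridization to 1 mouse Affymetrix array per sample. No label ties a replicate number to an animal, so the p-values measure the spread between these samples, and their number limits the precision.

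Oxidative phosphorylation burns reduced cofactors in the inner mitochondrial membrane. Complex I takes electrons from NADH and complex II from succinate, coenzyme Q carries them to complex III, and cytochrome c carries them on to complex IV, which reduces oxygen. Complexes I, III and IV pump protons, and ATP synthase lets them flow back to make ATP. Endothelial cells are known for making much of their ATP by glycolysis, while LECs also use fatty acid oxidation, which feeds the respiratory chain.

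Array medians lay between 9.49 and 10.93 on the linear scale of the deposited signals, and all further values are log2 of those signals. Background, set on each array so that 95% of 27 bacterial controls lay under it, was 2.96 to 3.91. Between 39.6% and 48.4% of probe sets exceeded it on tumour arrays, and between 41.7% and 56.0% on healthy-skin arrays. LEC markers were present in both groups. Prox1, the transcription factor of lymphatic fate, had 6.26, 6.73 and 7.58 in tumour LECs, against 4.73, 5.78 and 7.22 in healthy-skin LECs. Lyve1, the gene of the stain, had 9.64, 9.41 and 9.65 in tumour LECs, against 3.21, 7.58 and 6.80 in healthy-skin LECs, the lowest of these being below the background of its array. Keratinocyte markers were high in the healthy-skin captures. The mean over 16 of them was 5.88, 5.49 and 4.21 in tumour LECs, against 7.01, 7.34 and 7.75 in healthy-skin LECs. In such bulk captures fewer cells of a type and less RNA per cell cannot be told apart.

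Most respiratory chain and ATP synthase genes had a lower mean in tumour LECs, but none passed the test. Where a gene had several probe sets, the one with the brightest average signal stood for it. Of the 91 genes, 67 (73.6%) had a lower mean in tumour LECs and 24 a higher one, against 42.7% lower among all genes. The median difference, tumour minus healthy skin, was -0.47 over these genes and 0.08 over all genes. The limma test, adjusted by Benjamini-Hochberg over all probe sets, called 0 of the 91 genes at an adjusted p under 0.05, against 0.00444% of all probe sets, and the lowest adjusted p was 0.557. At an unadjusted p under 0.05, 5 of the genes were lower (5.49%, against 4.28% of all genes) and 2 were higher (2.20%, against 3.22% of all genes). With all 6 arrays both shares lie near those of all genes, but the count depended on single arrays. Without tumour replicate 2, 22 genes were lower at that threshold (24.2%, against 4.502% of all genes), and without healthy-skin replicate 1, 11 were (12.1%, against 5.45%). Without tumour replicate 3 the count was 3 (3.30%, against 3.24% of all genes), and without healthy-skin replicate 3 it was 2 (2.20%, against 3.91%). With array weights 21 were lower (23.1%, against 7.15%), and no gene was called after adjustment in any of these fits.

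In each group the highest and the lowest array lay further apart than the 2 group means. The mean over the 91 genes was 5.60, 6.27 and 5.30 in tumour LECs, against 5.92, 6.64 and 6.34 in healthy-skin LECs. Tumour replicate 2 was therefore above healthy-skin replicate 1, and the groups overlapped. The group means were 5.73 ± 0.50 and 6.30 ± 0.36 (SD over arrays, n = 3 each), in tumour and in healthy-skin LECs. Tumour replicate 3 was the lowest of all 6 arrays for 37 of the 91 genes, and healthy-skin replicate 2 the highest for 35. In tumour replicates 1 and 3, 65 and 66 genes (71.4% and 72.5%) were under their healthy-skin mean, against 44.6% and 42.0% of all genes. In tumour replicate 2, 45 genes (49.5%) were, against 54.3% of all genes, so on that array these genes were not lower more often than the rest.

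**Figure D1:**
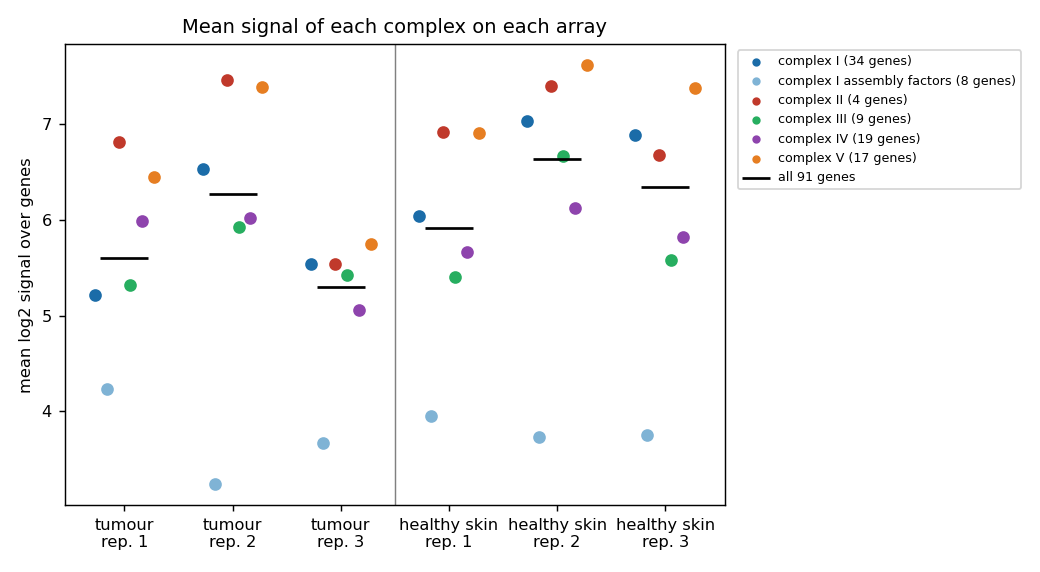
Mean log2 signal (vertical axis) of the genes of each complex on each of the 6 arrays (horizontal axis), tumour LECs on the left. Coloured points are complexes and black bars the mean over all 91 genes, which was 5.60, 6.27 and 5.30 in tumour LECs and 5.92, 6.64 and 6.34 in healthy-skin LECs.

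The size of the shift depended on single arrays. Without healthy-skin replicate 1 the median difference was -0.90, whereas it was -0.20 without healthy-skin replicate 2 and -0.24 without tumour replicate 3. The number of genes with a lower mean ranged from 55, without tumour replicate 3, to 72, without tumour replicate 2. An array-wide measure moved with the genes. The mean of 18 hybridization controls, bacterial and phage transcripts, was 13.2, 12.78 and 13.36 on the tumour arrays, against 13.01, 12.35 and 12.33 on the healthy-skin arrays, and in each group the array with the highest control level had the lowest mean over the 91 genes. With that level as a covariate, the median difference of the 91 genes was -0.0049, that of all genes was -0.12, and 46 of 91 genes (50.5%) were lower, against 59.7% of all genes.

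Markers of LECs and of other cells also moved with the groups or arrays. LEC markers, 10 of 11 higher, averaged 6.88, 7.16 and 7.24 in tumour LECs, against 5.58, 6.02 and 6.44 in healthy-skin LECs. Pan-endothelial markers, 13 of 13 higher, averaged 5.86, 5.63 and 5.83 in tumour LECs, against 4.54, 4.57 and 4.55 in healthy-skin LECs. Of the keratinocyte markers given above, 15 of 16 were lower. Adipocyte markers, 7 of 10 lower, averaged 4.08, 4.505 and 4.36 in tumour LECs, against 4.97, 5.27 and 5.27 in healthy-skin LECs. For each of these lists the array averages of the groups did not overlap. Sebocyte markers, 7 of 8 lower, averaged 4.32, 6.46 and 3.64 in tumour LECs, against 6.99, 8.12 and 7.34 in healthy-skin LECs, and did not overlap either. Fibroblast markers averaged 8.74, 9.64 and 5.94 over 10 genes in tumour LECs, against 7.88, 9.89 and 8.13 in healthy-skin LECs. Like the respiratory genes, both sebocyte and fibroblast markers were lowest in tumour replicate 3 and highest in healthy-skin replicate 2. Macrophage markers, 11 of 12 higher, were highest in tumour replicate 2, with averages of 5.55, 7.54 and 5.68 in tumour LECs, against 5.26, 5.43 and 4.99 in healthy-skin LECs. The 3′ minus 5′ signal of the Gapdh control probe sets, a measure of RNA and amplification quality, was 2.15, 4.10 and 2.29 in tumour LECs, against 3.72, 3.23 and 2.77 in healthy-skin LECs. The part of these cells and measures in the shift was not tested.

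Complex I and ATP synthase genes had the lowest medians. The median difference was -0.83 over the 34 complex I subunits, of which 27 were lower, and -0.83 over the 17 ATP synthase genes, of which 13 were lower. It was -0.31 over the 4 complex II genes, all lower, and -0.15 over the 9 complex III genes, of which 6 were lower. Complex IV had a median of -0.03, with 11 of 19 genes lower. That median is the value of Cox7a1, which was above background on no array. With dim probe sets removed it was -0.11 over 16 genes. The genes of complex IV include common and tissue-restricted forms, which are given apart below. The 8 assembly factors of complex I had a median of -0.33, and 6 were lower. Whether the complexes differ from each other was not tested.

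**Figure D2:**
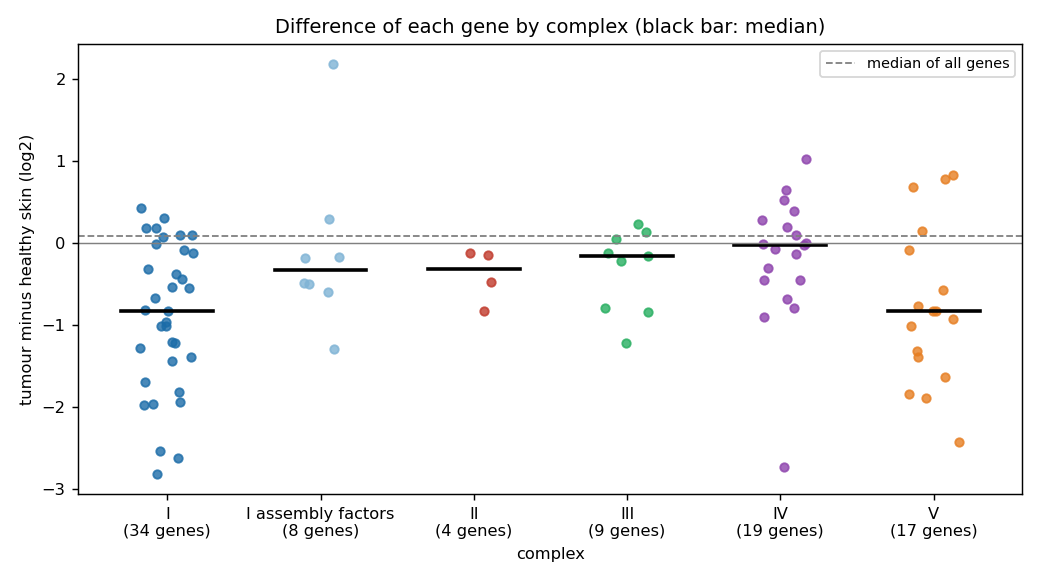
Difference in log2 signal, tumour minus healthy skin (vertical axis), of each of the 91 genes (points) by complex (horizontal axis), with the median of each complex as a black bar and that of all genes, 0.08, as a dashed line. Complex I and complex V have medians of -0.83, and complex IV one of -0.03, the value of a gene above background on no array.

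In complex I, Ndufa1, a small membrane-arm subunit needed for assembly of the complex, had the smallest p of all 91 genes. It had 5.92, 5.86 and 4.86 in tumour LECs, against 7.43, 8.33 and 6.82 in healthy-skin LECs. The groups did not overlap, and the difference was -1.98 ± 0.49 (standard error, n = 3 each, limma adjusted p = 0.557). Its difference stayed between -2.33 and -1.58 when any 1 array was left out.

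Other complex I subunits split along the tumour replicates. Ndufb5, a membrane-arm subunit, had 3.01, 6.55 and 2.84 in tumour LECs, against 5.96, 7.94 and 6.38 in healthy-skin LECs (difference -2.62 ± 1.06, limma adjusted p = 0.772). Ndufs8, a core subunit that carries iron-sulfur clusters, had 2.73, 6.81 and 2.92 in tumour LECs, against 5.79, 7.43 and 6.86 in healthy-skin LECs (difference -2.54 ± 1.11, limma adjusted p = 0.798). Ndufa2, an accessory subunit of the matrix arm, had 7.21, 9.96 and 7.52 in tumour LECs, against 10.38, 9.81 and 9.61 in healthy-skin LECs (difference -1.70 ± 0.73, limma adjusted p = 0.789). In all of them tumour replicates 1 and 3 lay below every healthy-skin array while tumour replicate 2 lay among them, and for Ndufb5 and Ndufs8 these low values were under the background of their arrays. Other probe sets of Ndufs8, above background on all 6 arrays, gave 1.33, 0.89, 0.68 and 0.55. The remaining one gave -2.997, with tumour replicates 1 and 3 again under background. The direction of Ndufs8 therefore depended on the probe set.

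The core subunits Ndufv1 and Ndufs1 had smaller negative differences. Ndufv1, which binds NADH and flavin, had 6.26, 5.65 and 6.63 in tumour LECs, against 6.08, 7.77 and 7.16 in healthy-skin LECs (difference -0.82 ± 0.50, limma adjusted p = 0.867). Ndufs1, the largest iron-sulfur subunit, had 3.67, 3.93 and 5.76 in tumour LECs, against 4.12, 5.17 and 5.66 in healthy-skin LECs (difference -0.53 ± 0.66, limma adjusted p = 0.914). The groups overlapped for both. Among all complex I subunits the highest positive difference was that of Ndufs5, at 0.42 ± 0.37. Its values were 3.97, 4.79 and 5.03 in tumour LECs and 4.24, 3.83 and 4.45 in healthy-skin LECs. A brighter probe set shared by Ndufs5 and its pseudogene, outside the gene rule, went the other way (difference -0.74 ± 0.97), with overlapping groups.

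Complex II, the succinate dehydrogenase that is also part of the tricarboxylic acid cycle, showed little difference. Sdha, the flavoprotein, had 7.77, 8.51 and 4.36 in tumour LECs, against 7.08, 8.65 and 7.42 in healthy-skin LECs (difference -0.84 ± 1.07, limma adjusted p = 0.918). Its lower mean rests on tumour replicate 3, and without that array the difference was 0.43. Sdhb, the iron-sulfur subunit, differed by -0.47 ± 0.57, and the membrane anchors Sdhc and Sdhd differed by -0.12 ± 0.41 and -0.15 ± 0.52.

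In complex III the genes with the largest negative differences were highest in healthy-skin replicate 2, which was the highest array for 4 of the 9 genes. Uqcrc1, a core subunit, had 5.99, 5.31 and 5.36 in tumour LECs, against 6.66, 8.46 and 5.21 in healthy-skin LECs (difference -1.22 ± 0.78, limma adjusted p = 0.868). Cyc1, the haem-bearing cytochrome c1, had 5.03, 5.21 and 5.04 in tumour LECs, against 4.76, 7.35 and 5.70 in healthy-skin LECs (difference -0.84 ± 0.63, limma adjusted p = 0.872). The groups overlapped for both, and without healthy-skin replicate 2 these differences were -0.38 and -0.14. The small subunit Uqcr10 differed by -0.79 ± 0.49. Uqcrfs1, the Rieske iron-sulfur protein, had the largest positive difference of the complex, 0.23 ± 0.31, with signals between 3.03 and 3.83 on all arrays.

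Complex IV has subunits with alternative forms for muscle, lung or testis, and its genes were read by that division. The 6 measured forms found in most tissues were Cox4i1, Cox6a1, Cox6b1, Cox7a2, Cox8a and Ndufa4, and 5 of them were lower, with a median of -0.38. Of the 8 restricted forms, Cox7a1 and Cox7b2 were above background on no array, as was Cox7c, so nothing can be read from their values. The other 6, Cox4i2, Cox6a2, Cox6b2, Cox8b, Cox8c and Ndufa4l2, had a median of 0.46, and 5 were higher. None of these genes passed the test. The median signal was 7.11 over the common forms and 4.94 over these 6 restricted ones. Differences also went with signal level, as described below, and the part of level in this contrast was not tested.

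Cox6b1, which faces the intermembrane space, had 7.04, 8.02 and 7.44 in tumour LECs, against 8.74, 8.04 and 8.08 in healthy-skin LECs. The groups did not overlap, though tumour replicate 2 lay close to the healthy-skin arrays (difference -0.79 ± 0.37, limma adjusted p = 0.815). Its second probe set gave 4.87, 6.81 and 5.04 in tumour LECs, against 9.20, 7.67 and 8.65 in healthy-skin LECs, and had the lowest adjusted p of all 180 probe sets (difference -2.93 ± 0.63, limma adjusted p = 0.483). Cox6c, a small structural subunit, had 8.78, 8.74 and 4.06 in tumour LECs, against 10.18, 10.38 and 9.24 in healthy-skin LECs (difference -2.74 ± 1.25, limma adjusted p = 0.809). All tumour values lay below all healthy-skin values, but without tumour replicate 3 the difference was -1.17. Its other probe set gave -1.02, with overlapping groups. Cox4i1, the regulatory subunit, and Cox6a1 differed by -0.30 ± 0.91 and -0.91 ± 0.72. The common forms Cox7a2, Cox8a and Ndufa4 differed by -0.46 ± 0.66, 0.19 ± 0.51 and -0.14 ± 0.37.

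Among the restricted forms Cox8c, a testis form, had the highest difference. It had 5.76, 4.59 and 5.75 in tumour LECs, against 4.73, 4.20 and 4.07 in healthy-skin LECs (difference 1.03 ± 0.41, limma adjusted p = 0.764), and tumour replicate 2 lay within the healthy-skin range. Cox4i2, known from lung and from low oxygen, had 4.51, 4.47 and 3.91 in tumour LECs, against 3.51, 3.75 and 4.06 in healthy-skin LECs (difference 0.53 ± 0.31, limma adjusted p = 0.863). Cox8b and Cox6a2, forms of heart and skeletal muscle, differed by 0.64 ± 0.49 and -0.0060 ± 0.30, and Cox6b2, a testis form, by 0.39 ± 0.33. Skeletal muscle markers, 15 genes, averaged 4.09, 3.77 and 4.20 in tumour LECs, against 4.10, 3.77 and 3.36 in healthy-skin LECs. Ndufa4l2, a gene induced by hypoxia, had 5.74, 6.06 and 4.96 in tumour LECs, against 5.85, 4.69 and 5.94 in healthy-skin LECs, which overlapped (difference 0.10 ± 0.46).

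In ATP synthase 13 genes of the head, stalks and membrane part had lower means in tumour LECs, while those of the proton ring had higher ones. Atp5b, the catalytic beta subunit, had 6.83, 6.52 and 4.04 in tumour LECs, against 8.95, 7.34 and 6.77 in healthy-skin LECs (difference -1.89 ± 0.88, limma adjusted p = 0.812). Atp5a1, the alpha subunit, had 8.92, 11.05 and 6.36 in tumour LECs, against 10.18, 11.14 and 10.54 in healthy-skin LECs (difference -1.84 ± 1.09, limma adjusted p = 0.865). The groups overlapped for both. Atp5d, the delta subunit of the central stalk, had 6.04, 7.21 and 5.11 in tumour LECs, against 7.31, 7.54 and 7.47 in healthy-skin LECs, and the groups did not overlap (difference -1.32 ± 0.53, limma adjusted p = 0.762).

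The membrane subunits f and e, encoded by Atp5j2 and Atp5k, are small proteins of the part that also holds ATP synthase dimers together. Atp5j2 had 6.67, 6.11 and 4.35 in tumour LECs, against 6.86, 8.82 and 8.76 in healthy-skin LECs, all tumour values being lower (difference -2.44 ± 0.77, limma adjusted p = 0.667). Its other 2 probe sets, above background on all 6 arrays, gave 0.043 and -0.53 with overlapping groups. Atp5k had 7.49, 10.18 and 8.11 in tumour LECs, against 9.99, 10.52 and 10.20 in healthy-skin LECs, with tumour replicate 2 inside the healthy-skin range (difference -1.64 ± 0.68, limma adjusted p = 0.778). The other probe sets of Atp5k gave -1.36 and -1.48.

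The ring of c subunits, through which protons pass, is made from 3 genes whose mature proteins are identical, and all had higher means in tumour LECs. Atp5g1 had 4.81, 5.11 and 5.39 in tumour LECs, against 4.26, 4.39 and 4.18 in healthy-skin LECs (difference 0.83 ± 0.28, limma adjusted p = 0.702). Atp5g2, named after its values were seen, had 5.56, 5.99 and 5.53 in tumour LECs, against 4.65, 5.39 and 4.97 in healthy-skin LECs (difference 0.69 ± 0.31, limma adjusted p = 0.804). All tumour arrays lay above all healthy-skin arrays for both. Atp5g3 overlapped, with 0.14 ± 0.56. The fourth ATP synthase gene with a higher mean in tumour LECs, Atp5mpl, encodes another small membrane protein of the complex and differed by 0.78 ± 0.50.

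Of the 91 genes, 7 had all 3 tumour arrays below all healthy-skin arrays (7.69%, against 5.36% of all genes) and 3 had all tumour arrays above (3.30%, against 6.58% of all genes). The lower ones were Ndufa1, Ndufb4, Ndufaf2, Cox6b1, Cox6c, Atp5d and Atp5j2, and the higher ones Ndufaf5, Atp5g1 and Atp5g2. Ndufb4 was above background on 1 array alone. Ndufaf5, an assembly factor, owed its mean to tumour replicate 1, with 8.02, 3.97 and 4.36 in tumour LECs, against 3.51, 3.27 and 3.02 in healthy-skin LECs.

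**Figure D3:**
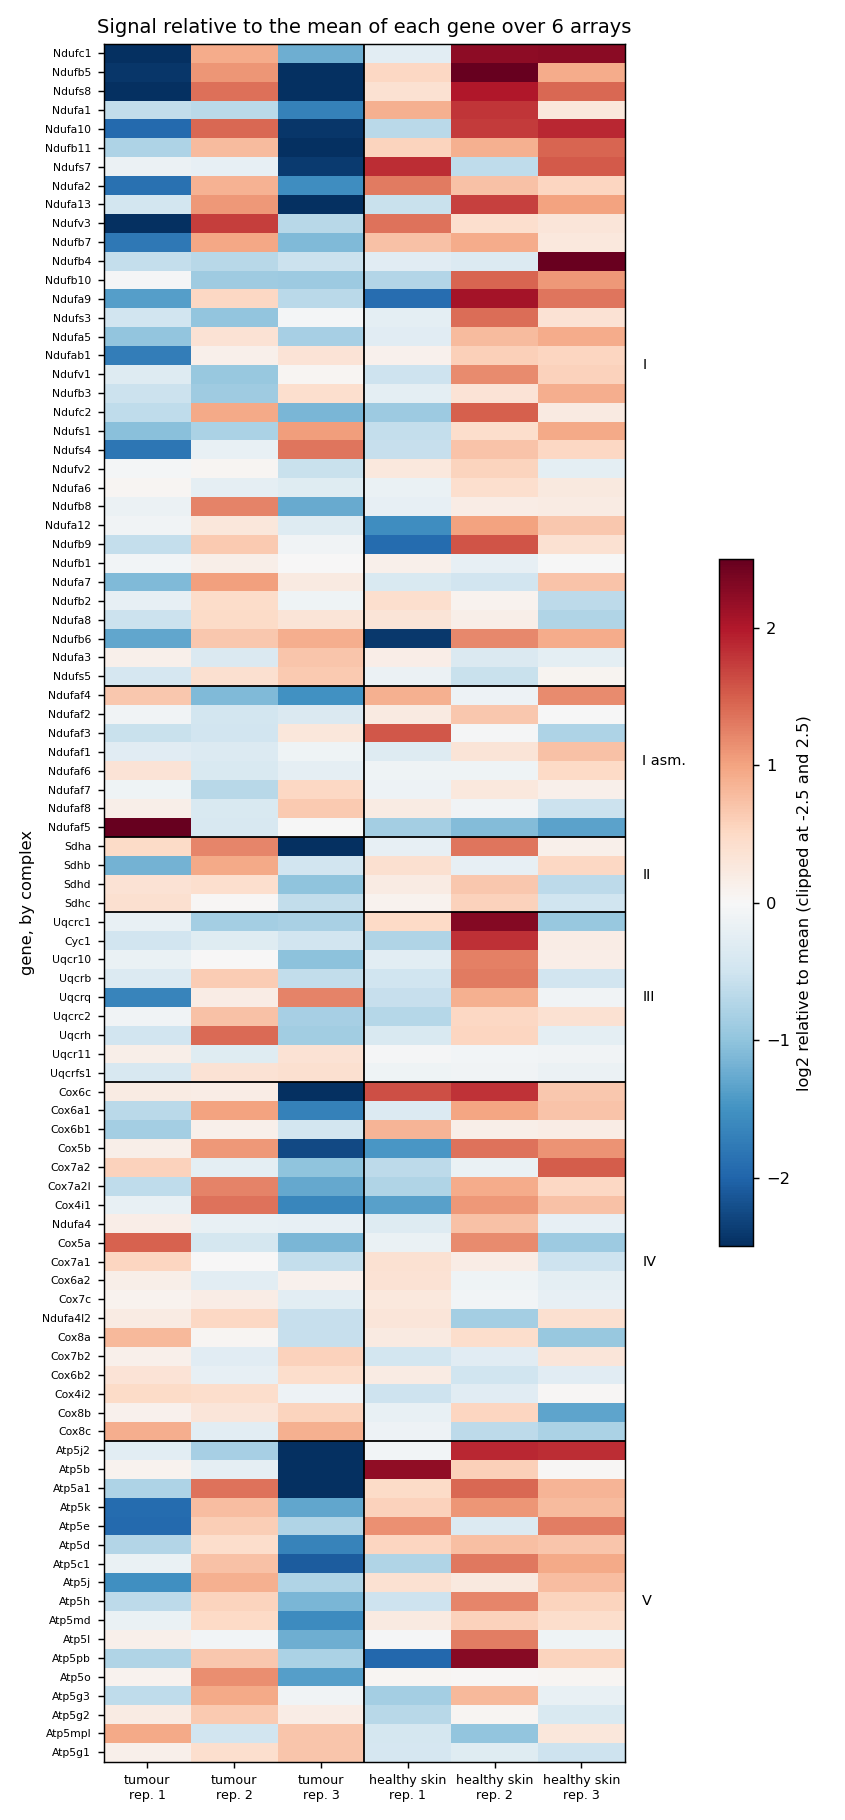
Log2 signal of each of the 91 genes (rows, grouped by complex and ordered by difference) relative to its mean over the 6 arrays (columns, tumour LECs on the left), from blue (below the mean) to red (above), with the deepest colours for differences at or past the ends of the scale. Tumour replicate 3 is the lowest array for 37 genes and healthy-skin replicate 2 the highest for 35.

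Promoters of nuclear respiratory genes are known for sites of the transcription factors NRF-1, GABP (an ETS factor) and YY1. RefSeq promoter windows (build GRCm38.p6, from 250 bases before to 50 after the gene start) were at hand for 74 of the 91 genes. The searched letters, on both strands, were GCATGCGC for NRF-1, CCGGAAG for the ETS core and AAGATGGC for YY1. The NRF-1 letters were found for 11 genes (14.9%, against 3.05% of 27025 genes with a window), the ETS letters for 19 (25.7%, against 9.93%) and the YY1 letters for 10 (13.5%, against 3.19%), while 41 genes had none of them. Median differences of genes with and without the letters were -0.47 and -0.58 for NRF-1, -0.79 and -0.50 for ETS, and -0.76 and -0.52 for YY1, and whether they differ was not tested. Windows of ATP synthase genes are shown because they set genes of opposite difference side by side. Atp5k lies on chr5:108434350-108434649 and Atp5j2 on chr5:145191492-145191791, and both were lower in tumour LECs, whereas Atp5g2, on chr15:102670998-102671297, was higher. All are on the minus strand and are printed 5′ to 3′ in the direction of the gene, with capitals marking the motif letters on either strand.
Atp5k: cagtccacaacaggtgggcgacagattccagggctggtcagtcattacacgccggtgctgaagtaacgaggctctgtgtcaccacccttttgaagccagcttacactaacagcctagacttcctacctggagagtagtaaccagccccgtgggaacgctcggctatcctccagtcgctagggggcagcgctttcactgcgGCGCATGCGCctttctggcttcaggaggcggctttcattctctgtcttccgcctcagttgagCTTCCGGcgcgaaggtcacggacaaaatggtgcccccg
Atp5j2: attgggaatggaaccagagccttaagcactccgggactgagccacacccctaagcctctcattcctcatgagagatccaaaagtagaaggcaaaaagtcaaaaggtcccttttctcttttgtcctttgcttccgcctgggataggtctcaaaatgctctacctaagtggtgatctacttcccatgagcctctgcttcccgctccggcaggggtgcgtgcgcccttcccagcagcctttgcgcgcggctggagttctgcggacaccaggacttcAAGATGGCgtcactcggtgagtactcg
Atp5g2: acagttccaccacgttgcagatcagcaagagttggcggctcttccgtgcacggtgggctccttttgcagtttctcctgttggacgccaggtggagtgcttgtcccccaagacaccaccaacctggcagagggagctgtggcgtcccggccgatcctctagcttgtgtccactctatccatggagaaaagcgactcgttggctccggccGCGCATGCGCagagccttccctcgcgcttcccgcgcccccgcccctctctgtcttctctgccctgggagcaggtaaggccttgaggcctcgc
In Atp5k and in Atp5g2 the NRF-1 letters occur on both strands in 1 overlapping run, which begins 50 and 42 bases before the start. Atp5k also holds the ETS letters on the opposite strand, 12 bases after the start, and Atp5j2 holds the YY1 letters 23 bases after it. The NRF-1 letters stand before both Atp5k and Atp5g2, which were chosen for their opposite differences, and neither gene passed the test. Nothing about the part of the letters can be read from this pair. A match of letters is a description of the window.

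The difference went with the signal level of the gene. Over the 47 genes with a mean of at least 6 on the log2 scale, 42 (89.4%) were lower, with a median of -0.83, against 55.9% lower and a median of -0.12 over the 2309 genes of the array at that level. Over the 20 genes with a mean under 4.5, 10 were lower and the median was -0.012, against 0.11 over all genes at that level. Bright genes of any kind were more often lower, and these bands were set after the data were seen.

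**Figure D4:**
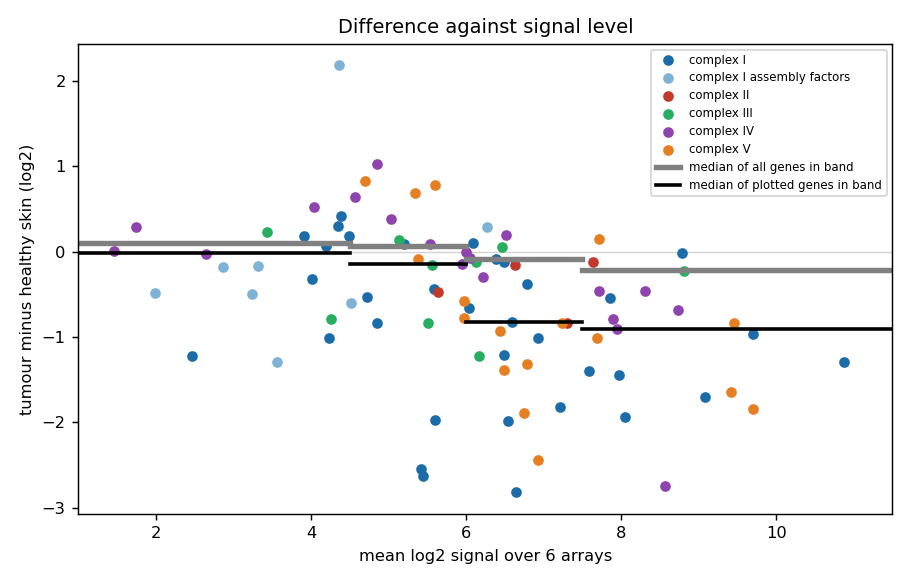
Difference in log2 signal, tumour minus healthy skin (vertical axis), against the mean log2 signal over the 6 arrays (horizontal axis) for the 91 genes, coloured by complex. Black bars give the median of these genes and grey bars that of all genes in 4 bands of level, -0.91 and -0.22 in the band of 7.5 or more.

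Probe sets of the same gene often went different ways. Of the 41 genes with at least 2 probe sets above background on 3 or more arrays, 24 had only lower values, 3 only higher and 14 both. Among the 6 probe sets of Ndufs8 the differences ran from -2.997 to 1.33, and the highest came from a probe set with 5.92, 6.24 and 5.99 in tumour LECs, against 5.61, 4.47 and 4.08 in healthy-skin LECs. Atp5a1 had -1.84 and -1.86 on 2 probe sets but 2.09 on the third, which read 7.65, 12.05 and 7.23 in tumour LECs, against 6.99, 7.15 and 6.52 in healthy-skin LECs. Tumour replicate 2 stood far above the other arrays there. Ndufv1 had -0.82 and -0.64 on 2 probe sets and 1.17 on the third, where all tumour arrays lay above all healthy-skin arrays. A letter before the ending _at (such as _a_at or _x_at) marks probe sets shared between transcripts or genes, and of the 87 of this kind 81.6% were lower, against 55.9% of the other 93. Over all probe sets with a single symbol these shares were 48.2% and 42.8%. The 87 were also brighter, with a median signal of 6.21, against 4.515 for the other 93, and the part of signal level in this split was not tested. Counting every probe set, 123 of 180 were lower, with a median of -0.31.

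**Figure D5:**
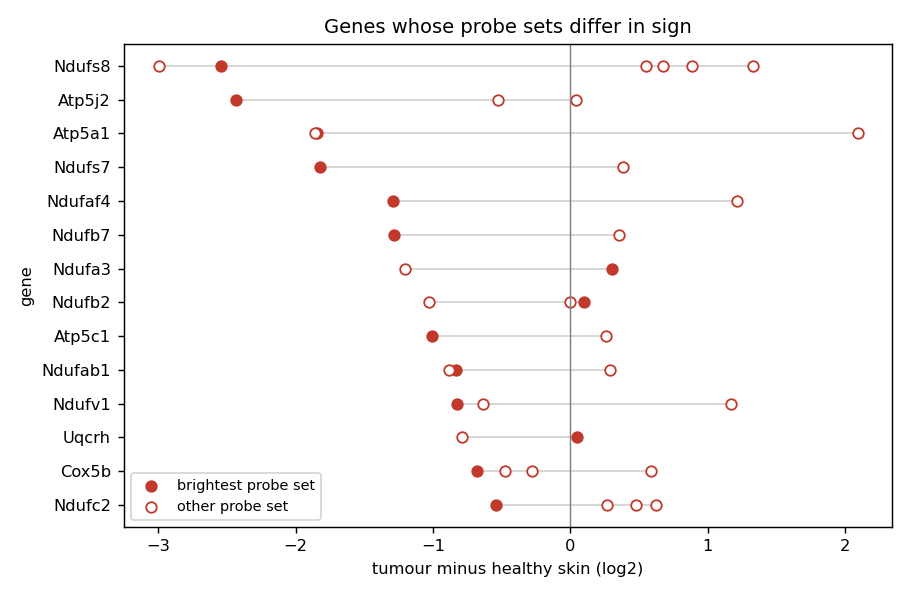
Differences in log2 signal, tumour minus healthy skin (horizontal axis), of the probe sets above background on 3 or more arrays, for the 14 genes (vertical axis) whose probe sets differ in sign. Filled points are the brightest probe set of each gene and open points the others, which for Ndufs8 reach from -2.997 to 1.33.

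Other lists of mitochondrial genes had smaller negative medians, some of them with about as many genes higher as lower. Mitochondrial ribosomal proteins had a median of -0.21 over 76 genes (47 lower), assembly factors outside the gene rule -0.15 over 36 (25 lower), and enzymes of the tricarboxylic acid cycle and pyruvate entry -0.24 over 19 (12 lower). Cytosolic ribosomal proteins, which are not mitochondrial, had -0.18 over 42 genes (29 lower). Electron carriers and coenzyme Q genes had -0.08 over 19 (12 lower), import genes -0.07 over 23 (12 lower), and carriers and antioxidant genes -0.225 over 14 (8 lower). Glycolysis genes had a median of 0.06 over 16 (8 lower), and regulators of mitochondrial biogenesis -0.014 over 20 (10 lower). No gene of these lists passed the limma test over all probe sets. The lists also differed in signal level, with which the difference went. The median signal was 6.06 over the 91 genes, 4.88 over mitochondrial ribosomal proteins, 4.01 over the assembly factors outside the rule and 8.725 over cytosolic ribosomal proteins. Their medians are therefore not compared at a like level.

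Single genes of these lists, taken from those with the smallest p, differed in both directions. Vdac1, the channel of the outer mitochondrial membrane, had 10.23, 10.50 and 11.03 in tumour LECs, against 11.83, 12.93 and 12.13 in healthy-skin LECs (difference -1.72 ± 0.39, limma adjusted p = 0.517). Mrpl41, a mitochondrial ribosomal protein, differed by -1.96 ± 0.42 and Cox17, the copper chaperone of complex IV, by -2.32 ± 0.80. Ogdh, the 2-oxoglutarate dehydrogenase of the cycle, went the other way with 1.16 ± 0.33. Ldhb, the lactate dehydrogenase form of oxidative tissue, had 7.02, 5.41 and 2.36 in tumour LECs, against 8.85, 10.53 and 8.10 in healthy-skin LECs (difference -4.23 ± 1.21, limma adjusted p = 0.62). Ppargc1a, a coactivator of mitochondrial biogenesis, had 3.89, 2.12 and 5.23 in tumour LECs, against 1.63, 2.21 and 2.47 in healthy-skin LECs (difference 1.64 ± 0.75, limma adjusted p = 0.809), mostly at or below background. Cycs, which encodes cytochrome c, differed by -0.0091 ± 0.44.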

How the data were processed

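RNA of 6 microdissected LEC samples was measured on Affymetrix mouse arrays. The authors deposited probe set intensity values on a linear scale, as the values show; the submitters' processing notes name RMA, with no version. RMA equalises arrays, which removes overall differences in RNA amount. The intensities were log2-transformed with no pseudocount, and 64 control probe sets were left out. Symbols came from the platform annotation. All 45037 other probe sets were tested, two-sided, by limma 3.58.1 under R 4.3.3 (moderated by eBayes), with Benjamini-Hochberg adjustment and a threshold of 0.05. The procedure was tested on simulated data, with log2 differences of 1, 2, 4 and 8 planted in 50 probe sets each. It called 0, 6, 44 and 50 of them, so a lack of calls does not show that differences of 1 or 2 are absent. Of 44837 probe sets with no planted difference, 2 were called.

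Genes, lists and alternatives were chosen with earlier results of these data known. Per complex, the named genes were up to 4 with the smallest p, the one with the largest positive difference, and fixed core genes and isoforms; each other list gave up to 2. Ndufaf5, Ndufb4, Ndufaf2, Atp5g2, Atp5g3, Atp5mpl, Cox7c and Cycs were named after their values were seen, to complete a count or a subunit.

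Alternatives were quantile normalization, median centring, removal of dim probe sets, a replicate block, trended or robust moderation, weighting of arrays, leaving out arrays, the hybridization-control covariate, a pseudocount of 16 and other ways to represent a gene. Bands of signal level, leaving out a pair of arrays, and leaving undetected isoforms out of a count, were added after seeing the data.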

Additional observations from a re-analysis of the deposited data

How the results depend on the processing

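No gene of the 91 was called at an adjusted p under 0.05 or under 0.1 in any alternative, and at an unadjusted p under 0.05 there were 7 (5 lower, 2 higher). With 1 array left out the lower ones numbered 2 to 22, with array weights 21. The lowest adjusted p under any alternative was 0.145, without tumour replicate 2. With 1 array left out, 55 to 72 genes were lower and the median was -0.90 to -0.20; otherwise the median was -0.80 with array weights and -0.0049 with the hybridization-control covariate, where 46 genes were lower, and 123 of 180 probe sets were lower. The replicate block gave the same median (-0.47) and 0 calls. Over all probe sets tested, same-numbered arrays did not deviate together (correlations of deviations from the group means 0.044, 0.10 and -0.013), and the numbers were not read as pairs. Whether the 91 genes alone deviated together was not tested. The block had 9 genes lower at an unadjusted limma p under 0.05 (9.89%, against 4.82% of all genes), in place of 5.

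Medians of complexes II to V changed sign under some alternatives, and the cause was not tested. With the covariate those of complexes II, III, IV and V were 0.10, 0.22, 0.18 and 0.049. Quantile normalization gave 0.018 (III) and 0.034 (IV), array weights 0.070 (IV), and leaving out tumour replicate 3 with healthy-skin replicate 1, chosen after seeing the data, 0.14 (II) and 0.12 (IV). With 1 array left out they ranged from -0.73 to 0.23 (II), -0.59 to 0.13 (III) and -0.25 to 0.26 (IV). Of 36 named genes 19 kept their sign in the 15 refits, which kept the probe set that stood for each gene. Other ways to represent a gene were not part of that count. For Ndufs8 the brightest probe set without an _x_at ending gave 1.33. Under the covariate the sign changed for Sdha (0.91), Sdhb (0.035), Sdhd (0.16), Cyc1 (0.12), Uqcr10 (0.021), Cox4i1 (1.87), Cox6a1 (0.64), Cox6b2 (-0.17), Cox7a2 (0.38), Ndufa4 (0.13) and Atp5a1 (0.049). Under quantile normalization it changed for Sdhc (0.10), Cox6a2 (0.13) and Ndufa4 (0.034), under array weights for Cox6a2 (0.10), Cox7a1 (0.11) and Cox7a2 (0.0065), and without both arrays for Sdha (0.11), Sdhc (0.17), Sdhd (0.37), Cox6a2 (0.12), Cox7a1 (0.44) and Cox7b2 (-0.083). With 1 array left out the ranges that crossed 0 were -1.65 to 0.43 (Sdha), -1.07 to 0.0017 (Sdhb), -0.40 to 0.16 (Sdhc), -0.52 to 0.31 (Sdhd), -1.06 to 0.44 (Cox4i1), -0.13 to 0.17 (Cox6a2), -0.31 to 0.26 (Cox7a1), -0.90 to 0.18 (Cox7a2), -0.23 to 0.53 (Cox8a), -0.34 to 0.20 (Ndufa4) and -0.31 to 0.41 (Ndufa4l2). The 17 genes above background on some arrays only, and the 4 on none, carry little signal.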

Other observations

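Probe sets that name a subunit together with another gene stood outside the gene rule. Of these 10, 4 were lower in tumour LECs and the median difference was 0.08. The probe set shared by Ndufab1, the mitochondrial acyl carrier protein, and its pseudogene had 3.64, 6.76 and 4.53 in tumour LECs, against 6.96, 7.52 and 6.94 in healthy-skin LECs (difference -2.16 ± 0.76, limma adjusted p = 0.713). The probe set shared by Ndufs6 and Ndufs6b had 6.70, 7.23 and 7.21 in tumour LECs, against 7.29, 7.22 and 7.36 in healthy-skin LECs (difference -0.24 ± 0.28).

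ND5, the complex I subunit encoded by mitochondrial DNA, had a single probe set. It had 11.85, 11.72 and 11.24 in tumour LECs, against 12.08, 12.08 and 11.65 in healthy-skin LECs (difference -0.34 ± 0.30, limma adjusted p = 0.886), and the groups overlapped.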
